A study of Mus musculus with 4 samples.

Results

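The 34 genes described here encode the machinery that imports proteins into mitochondria, measured in intestinal stem cells (ISCs) of young and old mice. They were chosen by gene name alone: every gene of the deposited table whose symbol is Timm or Tomm followed by a number and at most a short suffix, plus Pam16, Dnajc19, Grpel1, Grpel2, Hspa9, Pmpca, Pmpcb, Chchd4 and Gfer, out of 52459 genes listed. Young ISCs (ISC_2mth) came from WT mice of strain C57/Bl6 at 2 months and old ISCs (ISC_22mth) from WT mice of the same strain at 22 months, with no other treatment given in the labels. Crypt cells were sorted by surface antigens for the SM6 phenotype (negative for CD31 and CD45, positive for EPCAM and CD166, high for CD44 and EPHB2, intermediate for CD24 and low for GRP78), and each age had 2 libraries, each from the cells of 5 pooled animals. RNA was amplified by SPIA, which copies whole transcripts and adds no molecular identifiers, so that differences between single animals and duplicate molecules cannot be seen.

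Most mitochondrial proteins are made in the cytosol from nuclear genes and must cross or enter the mitochondrial membranes after translation. The TOM complex is the entry gate of the outer membrane, and from there presequence-carrying proteins pass through TIM23 into the matrix, pulled by a motor built around the mitochondrial Hsp70 (Hspa9), while carrier proteins of the inner membrane are escorted by small TIM chaperones to TIM22. The matrix processing peptidase cuts off the presequence, and the disulfide relay of Chchd4 and Gfer traps small cysteine-rich proteins in the intermembrane space.

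The libraries held between 11662654 and 15975698 reads counted on genes, of which the 34 import genes together took 7642 and 8410 in the young pools and 8072 and 7821 in the old pools. Mitochondrially encoded genes took 62.6% and 65.7% of the reads in the young pools and 73.8% and 72.9% in the old pools, so every level below is relative to a TMM-normalized library (TMM scales libraries so that most genes do not differ) and is given as normalized CPM (read counts scaled to a common library size). The 9 ISC markers examined summed to between 2212 and 2535 CPM in the 4 pools and none of them had an FDR under 0.05 by edgeR. Most of this sum was Olfm4, with 1111 to 1302 CPM, while Lgr5, Axin2 (149 and 128 against 102 and 98.6 CPM) and Ephb2 (59.0 and 51.6 against 35.6 and 41.7 CPM) lay lower, and Ascl2 and Alcam higher, in both old pools. Enterocyte markers summed to 308 and 416 CPM in young ISCs and to 702 and 603 CPM in old ISCs, and Paneth markers to 1048 and 831 CPM in young and 2400 and 957 CPM in old ISCs. Leukocyte markers summed to 15.4 and 16.2 CPM in young and 22.6 and 22.9 CPM in old ISCs, and tuft markers to 3.04 and 4.97 against 9.01 and 5.24 CPM. Among these markers Defa17, Defa24 and Defa30 (Paneth), Sis and Fabp2 (enterocyte), Dclk1 (tuft) and Itgam (leukocyte) were higher in old ISCs at an FDR under 0.05 by edgeR, while Cd3g, Cd79a and Tyrobp had no read in any pool. Itgam (10.2 and 13.0 against 19.2 and 20.6 CPM) made up most of the leukocyte sum, and Cd68 (4.35 and 2.72 against 2.27 and 1.80 CPM) and Csf1r (4 and 3 against 2 and 1 reads) lay lower in both old pools. The part of these other cell types in the levels of the import genes was not tested, and in pooled cells fewer cells of a type cannot be told apart from less RNA per cell.

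Small TIM chaperones have a sequence feature that the choice by name did not use, cysteines in pairs with 3 residues between them. In the coding sequences (GENCODE vM21, longest per gene) the pattern of in-frame cysteine codons, with 10 to 20 codons between the pairs, was found in Timm8a1, Timm8a2, Timm8b, Timm9, Timm10 and Timm13, and in 1.23% of all 21562 genes with a coding sequence. It was not found in the longest coding sequence of Timm10b, the small TIM of the TIM22 translocase. Other transcripts of Timm10b were not searched, and pairs set closer or farther apart would be missed. The pairs are shown because they are what the chaperones are folded around, with the cysteine codons in capitals, in the order first pair and second pair.
Timm9, codon 28: TGCtttttggacTGT
Timm9, codon 48: TGTtcagaacatTGC
Timm10, codon 29: TGCcaccggaagTGC
Timm10, codon 50: TGTctggaccgaTGT
Timm8a1, codon 43: TGCtgggagaagTGC
Timm8a1, codon 62: TGTtttgtgaacTGC
Timm13, codon 46: TGTttccggaagTGC
Timm13, codon 65: TGCatcgccatgTGC

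Several members have copies that limit how their reads can be assigned. The whole coding sequence of Timm23, 627 nt, is identical in Gm10273, a gene on chromosome 10 (59395632 to 59396757, GRCm38), and the whole coding sequence of Timm8a1, 291 nt, is identical in the processed pseudogene Gm9797, also on chromosome 10 (11609223 to 11609835). Gm10273 had 1 read in all 4 pools together and Gm9797 had none. Timm8a1 and its paralog Timm8a2, in contrast, differ at 66 of 291 aligned coding positions (77.3% identical). A 60-nt window from coding position 10 to 69, in which they differ most, is shown with the differing bases in capitals.
Timm8a1: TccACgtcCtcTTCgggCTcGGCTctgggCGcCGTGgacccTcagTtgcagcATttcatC
Timm8a2: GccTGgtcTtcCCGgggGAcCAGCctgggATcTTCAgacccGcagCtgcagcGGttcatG

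Levels of the import genes were compared per kilobase of exon, since longer transcripts give more reads. The length used was that of all annotated exons of a gene merged, which can exceed that of the transcripts present. Hspa9, the mitochondrial Hsp70 that drives the import motor, was the most abundant, with 31.4 ± 1.49 CPM per kb in young and 38.4 ± 4.62 in old ISCs (mean ± SD, n = 2 pools here and below). It alone took between 24.8% and 28.0% of the reads of all 34 genes in a pool. Next came Timm8b, with 18.4 ± 3.17 CPM per kb in young and 19.3 ± 4.41 in old ISCs, and Tomm7, with 13.7 ± 0.859 and 19.9 ± 3.09. Tomm22 (13.2 ± 2.06 and 16.2 ± 2.09) and Tomm5 (12.7 ± 1.56 and 14.3 ± 3.36) followed, and within each of the 4 pools Timm8b lay above Tomm22 and Tomm22 above Tomm5. Thus 3 of these abundant transcripts encode TOM subunits, the receptor Tomm22 and the small subunits Tomm5 and Tomm7, whereas the pore itself, Tomm40, lay at 3.30 ± 0.690 CPM per kb in young and 2.94 ± 0.411 in old ISCs. Of the remaining genes Timm10 was the highest, with 7.19 ± 1.08 and 10.1 ± 1.38 CPM per kb. The distance of Tomm40 from the other TOM subunits depends on the lengths, 4.513 kb for Tomm40 against 0.868 for Tomm5, 1.125 for Tomm7 and 1.651 for Tomm22. Without division by length, Tomm40 lay at 14.9 CPM in young and 13.3 in old ISCs and Tomm5 at 11.0 and 12.4. Tomm7 then lay at 15.5 and 22.4 CPM and Tomm22 at 21.8 and 26.8.

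**Figure D1:**
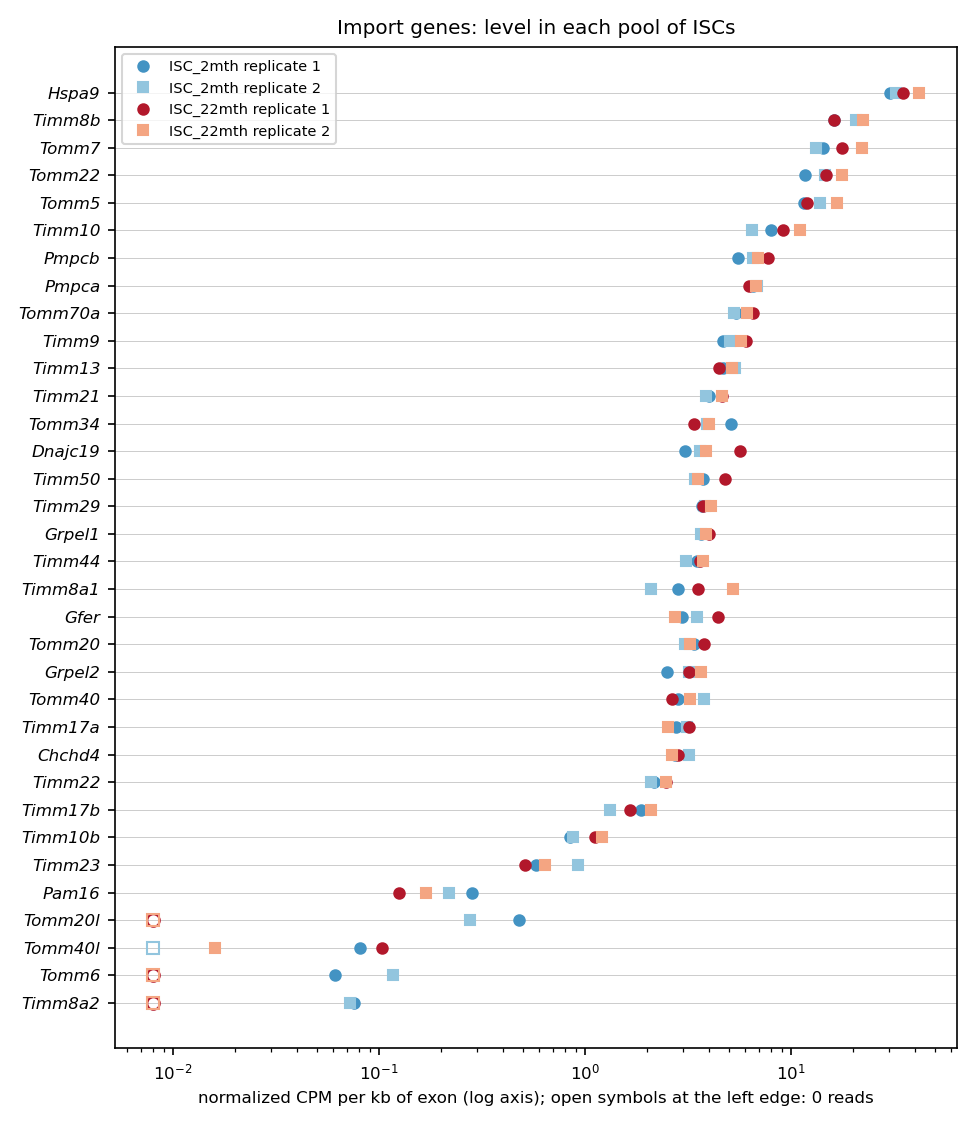
Level of each of the 34 import genes in the 4 pools, as normalized CPM per kilobase of exon on a log axis, with young pools in blue and old pools in red, and open symbols at the left edge for 0 reads. Hspa9 stands above all others, and Timm23, Pam16, Tomm20l, Tomm40l, Tomm6 and Timm8a2 lie below 1 CPM per kb in every pool.

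The lowest levels belonged to 6 genes. Timm8a2 had 1 and 1 reads in young and 0 and 0 in old ISCs, and Tomm20l, a paralog of the receptor Tomm20, had 5 and 3 reads in young and 0 and 0 in old ISCs. Tomm6, a small TOM subunit, had 1 and 2 reads in young and 0 and 0 in old ISCs, Tomm40l had 6 and 0 in young and 7 and 1 in old ISCs, and Pam16 had 10 and 8 in young and 4 and 5 in old ISCs. These 5 genes did not reach the minimum for testing (over 5 reads and over 1 CPM in any pool), and no fold change is given for them. Timm23, the channel of the inner membrane translocase, was tested with 15 and 25 reads in young and 12 and 14 in old ISCs.

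Low counts coincided with shared sequence in 4 of the 6. Of all runs of 50 nt in Tomm6 transcripts, 72.8% are present in another gene as well, mostly the overlapping readthrough gene Gm21981, and 84.2% of its exonic bases lie in exons of other genes. That share of runs was 57.5% for Timm23, 56.3% for Tomm40l, whose exons overlap Nr1i3 on the opposite strand over 3304 bp, and 35.7% for Pam16. It was 0% for Tomm20l and Timm8a2, whose few reads were therefore not accompanied by shared sequence in annotated transcripts. Timm8a1 had a share of 41.0% and still 45 to 91 reads per pool. The methods of the study do not give the strand setting or the handling of reads with several matches, and the part of shared sequence in the low counts was not tested.

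**Figure D2:**
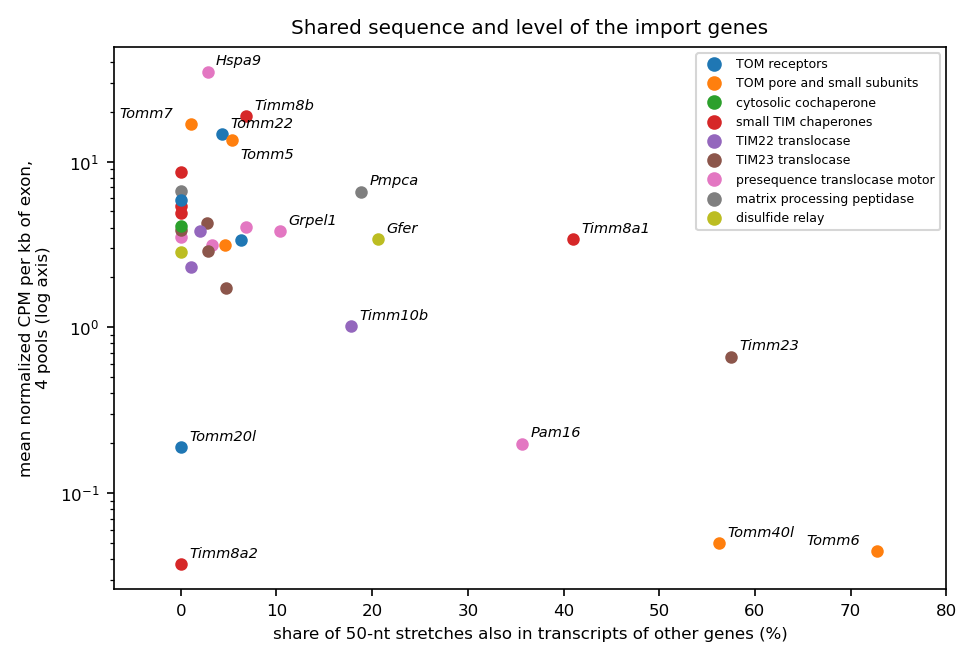
Share of all 50-nt runs of an import gene that another annotated gene also holds (percent) against its mean level over the 4 pools (normalized CPM per kilobase of exon, log axis), with 1 point per gene, coloured by role. Tomm6, Timm23, Tomm40l and Pam16 combine high shares with levels below 1 CPM per kb, whereas Tomm20l and Timm8a2 are low at 0%.

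To ask whether import genes differ between young and old ISCs, all 13692 genes that reached the minimum were fitted together in edgeR and tested by quasi-likelihood, with Benjamini-Hochberg adjustment (FDR). None of the 29 import genes tested had an FDR under 0.05 by this edgeR test, whereas 2.26% of all genes tested did (1.63% higher and 0.628% lower in old ISCs). An unadjusted p under 0.05 was reached by 4 of the 29 (13.8%), namely Tomm7, Timm8a1, Dnajc19 and Hspa9, against 16.9% of all genes tested. DESeq2, edgeR's likelihood ratio test and limma voom with sample quality weights also called 0 of the 29 at FDR 0.05, with 3, 4 and 4 genes at an unadjusted p under 0.05. Over all genes these called 1.44%, 4.46% and 2.34%, with 10.2%, 18.1% and 16.1% at an unadjusted p under 0.05. After correction by GC content and length in edgeR, 0 were called and 1 of the 29 (3.45%), Timm8a1, had an unadjusted p under 0.05, against 13.8% of all genes tested. Old pools lay above both young pools for 15 of the 29, where 24% of all genes tested did so, and below both for 0, where 23.6% did. This count depends on the scaling: with libraries scaled by their total counts it was 0 higher (3.1% of all genes) and 20 lower (68.7%), and with counts outside the mitochondrially encoded genes as library size 12 higher (19.1%) and 3 lower (28.5%). A log2 fold change (22 months minus 2 months) above 0 was found for 22 of the 29, against 49.5% of all genes tested. Its median was 0.22 over the 29 genes and -0.0049 over all genes tested, and with total counts it was -0.28 and -0.50, a distance between the medians of 0.22 in both. That distance was 0.16 after correction by GC content and length, 0.14 with a replicate block added, and 0.15 without ISC_2mth replicate 1. With total counts 5 of the 29 were called lower by edgeR, where 33.3% of all genes tested were, and none higher. A change would have needed a log2 fold change of at least 0.47 (Hspa9) to 2.42 (Timm23), with a median of 0.74, to reach the p of the last gene called, so that smaller differences were not detectable in 2 pools per age. For 26 of the 29 genes the 95% interval lay within a 2-fold difference in either direction.

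**Figure D3:**
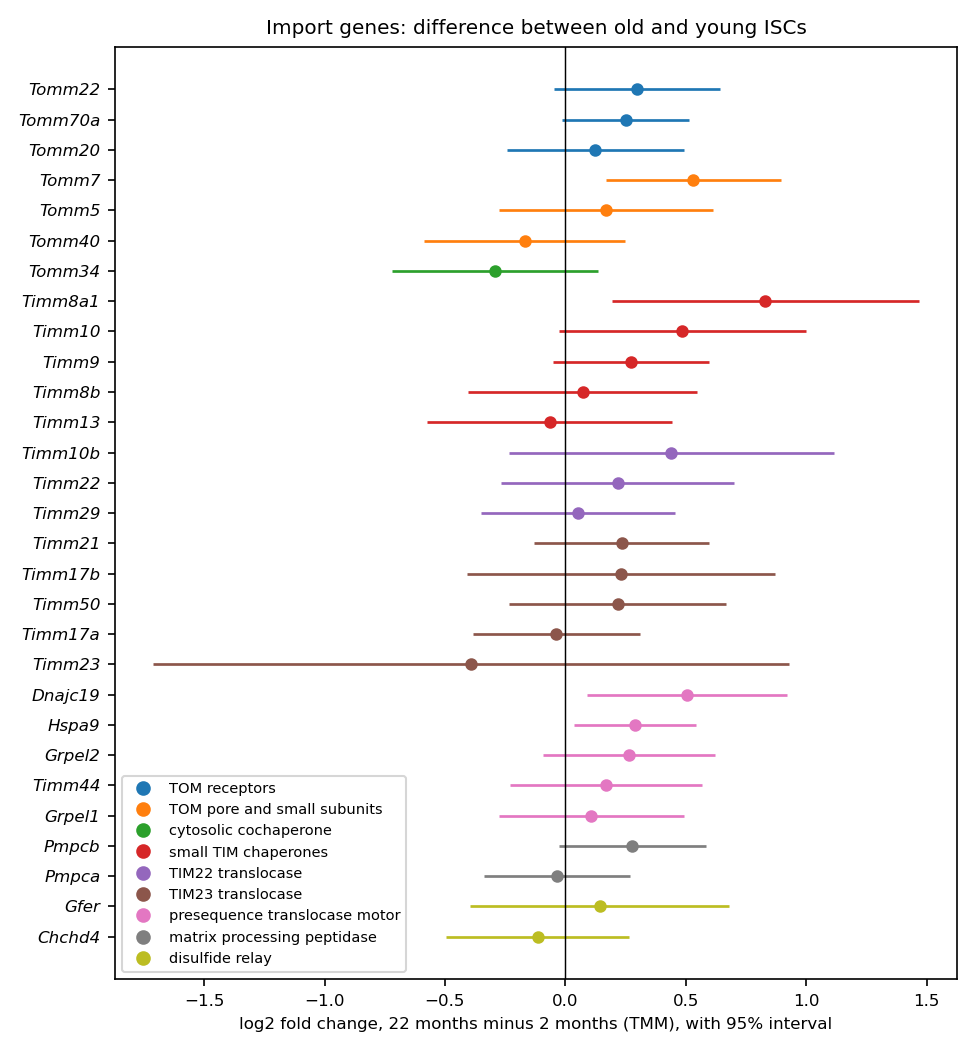
Log2 fold change (22 months minus 2 months, TMM) of the 29 import genes tested, with its 95% interval from the quasi-likelihood test, grouped and coloured by role. Intervals of Tomm7, Timm8a1, Dnajc19 and Hspa9 lie above 0, all others include 0, and no gene had an FDR under 0.05.

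Among the TOM receptors, which first bind precursor proteins at the outer membrane, 0 of 3 tested passed the threshold. Tomm70a, the receptor for carrier precursors (chromosome 16, 57121703 to 57156705), was measured at 52.9 and 51.4 CPM in young and 64.2 and 59.8 CPM in old ISCs, with 767 and 775 raw reads against 848 and 730. Both old pools were the higher ones after normalization, with a log2 fold change of 0.25 (SE 0.13, FDR = 0.33 by edgeR's quasi-likelihood test). Tomm22, the central receptor, was at 19.4 and 24.2 CPM in young and 24.4 and 29.2 CPM in old ISCs, a log2 fold change of 0.30 (FDR = 0.38 by edgeR) in which the lower old pool and the higher young pool nearly coincided. It was 0.13 after the GC and length correction and between 0.15 and 0.46 with 1 pool left out. Tomm20, the presequence receptor, overlapped between ages, with 16.6 and 15.0 CPM against 18.5 and 15.9 CPM (log2 fold change 0.12, 95% interval -0.24 to 0.49).

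In the TOM pore and its small subunits, Tomm7 had the lowest p of all import genes. Tomm7, which modulates the assembly of the complex (chromosome 5, 23838944 to 23844161), was measured at 16.1 and 14.8 CPM in young and 19.9 and 24.8 CPM in old ISCs, with 234 and 223 raw reads against 263 and 303. Old pools were above young pools, but they differed from each other by more than the gap between the ages, and the log2 fold change of 0.53 (SE 0.17, 95% interval 0.17 to 0.89) had an FDR of 0.12 by edgeR. It was 0.34 after correction for GC content and gene length. Without ISC_22mth replicate 1, the FDR of Tomm7, Timm8a1 and Hspa9 was under 0.05 by edgeR, with log2 fold changes of 0.68, 1.10 and 0.41, and without ISC_22mth replicate 2 only that of Dnajc19 was, with 0.75, while Tomm7, Timm8a1 and Hspa9 stood at 0.37, 0.52 and 0.16. Over all genes these fits called 4.8% and 5.22%, against 2.26% with all 4 pools. Tomm40, the pore, overlapped between ages with 184 and 258 reads against 158 and 178 (log2 fold change -0.17, 95% interval -0.59 to 0.25), as did Tomm5 (0.17, -0.28 to 0.61). Tomm34, a cytosolic cochaperone of Hsp70 and Hsp90, had the most negative log2 fold change of the members with more than 100 reads in every pool, -0.29 (SE 0.20, FDR = 0.50 by edgeR), from 15.6 and 11.9 CPM in young and 10.3 and 12.1 CPM in old ISCs, with 226 and 179 raw reads against 136 and 148, and its pools overlapped. Its log2 fold change was -0.083 without ISC_2mth replicate 1, where those of Tomm40 and Chchd4 were -0.37 and -0.22, and -0.48 without ISC_2mth replicate 2.

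Small TIM chaperones ferry hydrophobic proteins across the intermembrane space as hexamers of Timm9 with Timm10 or of Timm8 with Timm13. None of the 5 tested passed the threshold. Timm8a1, the mouse counterpart of the deafness-dystonia gene TIMM8A (chromosome X, 134537256 to 134541865), had 58 and 45 reads in young and 66 and 91 in old ISCs, or 4.00 and 2.98 against 4.99 and 7.45 CPM. Its log2 fold change of 0.83 was the largest of the 29 (SE 0.30, 95% interval 0.19 to 1.47, FDR = 0.17 by edgeR), rested on few reads and was 0.70 after correction for GC content and gene length. Timm10 was at 6.49 and 5.23 CPM in young and 7.42 and 9.01 CPM in old ISCs (log2 fold change 0.49, SE 0.24, FDR = 0.32 by edgeR), and its partner Timm9 at 19.9 and 21.6 CPM against 25.9 and 24.3 CPM (0.27, SE 0.16, FDR = 0.39). For both genes the old pools lay above the young pools. Timm8b (log2 fold change 0.07, 95% interval -0.40 to 0.55) and Timm13 (-0.07, -0.57 to 0.44) overlapped between ages.

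The TIM22 translocase inserts carrier proteins into the inner membrane, and 0 of its 3 genes passed the threshold. Timm10b, the small TIM that docks the chaperones on it, had the lowest p of the 3, with 44 and 47 reads in young and 53 and 53 in old ISCs (log2 fold change 0.44, SE 0.32, FDR = 0.52 by edgeR). Its old pools lay above its young pools, but 22.1% of its exonic bases lie in exons of other genes. Timm22, the channel, was at 6.90 and 6.63 CPM in young and 7.87 and 7.86 CPM in old ISCs (0.22, 95% interval -0.27 to 0.70), and Timm29 overlapped between ages (0.05, -0.35 to 0.45).

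Of the TIM23 translocase, which takes presequence proteins to the matrix, 0 of 5 genes passed. Timm21, which links it to the respiratory chain, had the lowest p, with 14.9 and 14.3 CPM in young and 17.3 and 17.1 CPM in old ISCs, with 216 and 216 raw reads against 228 and 209. These pools did not overlap, and the log2 fold change was 0.23 (SE 0.17, FDR = 0.53 by edgeR), or 0.078 after the GC and length correction. Timm50, the receptor of the complex, overlapped (10.1 and 9.14 against 12.8 and 9.50 CPM). The paralogs Timm17a and Timm17b, alternative subunits of the channel, had log2 fold changes of -0.04 (95% interval -0.38 to 0.31) and 0.23 (-0.41 to 0.87), and the ages overlapped in both. The interval of Timm23 was the widest of all, from -1.71 to 0.93.

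Every tested gene of the presequence translocase motor, 5 of 5, had both old pools above both young pools, where 24% of all genes tested did, yet none passed the threshold. This too depends on the scaling, since with total counts no member was higher in both old pools and the log2 fold changes of Hspa9, Grpel1, Grpel2 and Timm44 were -0.20, -0.38, -0.22 and -0.33, and that of Dnajc19 was 0.015. Dnajc19, a J-protein that stimulates Hspa9 (chromosome 3, 34056020 to 34081321), was at 12.3 and 14.6 CPM in young and 22.6 and 15.5 CPM in old ISCs, with 178 and 220 raw reads against 299 and 189. One old pool thus lay close to the young pools, and the log2 fold change was 0.51 (SE 0.20, 95% interval 0.09 to 0.92, FDR = 0.20 by edgeR), or 0.21 without ISC_22mth replicate 1 and 0.35 after correction for GC content and gene length. Hspa9 (chromosome 18, 34937414 to 34954357) was at 131 and 140 CPM in young and 151 and 179 CPM in old ISCs, with 1897 to 2191 reads per pool. Its log2 fold change was 0.29 (SE 0.12, 95% interval 0.03 to 0.54, FDR = 0.23 by edgeR). The nucleotide exchange factors Grpel1 and Grpel2, which release ADP from Hspa9, had log2 fold changes of 0.11 (95% interval -0.28 to 0.49) and 0.26 (-0.09 to 0.62), and Timm44, which anchors the motor at the channel, of 0.17 (-0.23 to 0.57). Pam16, the fifth motor partner of Hspa9 among the members, could not be tested at its read counts.

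Neither of the 2 subunits of the matrix processing peptidase passed the threshold. Pmpcb, the catalytic subunit, was at 28.4 and 33.6 CPM in young and 39.6 and 35.5 CPM in old ISCs, with 411 and 507 raw reads against 523 and 434, both old pools being higher after normalization, and a log2 fold change of 0.28 (SE 0.15, FDR = 0.35 by edgeR). Pmpca, which binds the presequence, overlapped between ages, with 27.9 and 29.2 CPM against 26.7 and 29.1 CPM (log2 fold change -0.03, 95% interval -0.34 to 0.27), and 20.4% of its exonic bases lie in exons of Inpp5e on the opposite strand. In the disulfide relay, Chchd4, the oxidoreductase, was at 14.2 and 16.5 CPM in young and 14.6 and 13.8 CPM in old ISCs, with 206 and 249 raw reads against 193 and 168 (log2 fold change -0.11, SE 0.18, FDR = 0.80 by edgeR). Gfer, which reoxidises it, was at 6.62 and 7.82 CPM against 9.84 and 6.06 CPM (0.14, 95% interval -0.39 to 0.68), and the ages overlapped in both genes.

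Ratios between partner genes within a pool do not depend on how libraries are scaled, and were taken per kilobase of exon. Pmpcb per Pmpca was 0.845 and 0.960 in young and 1.23 and 1.02 in old ISCs, so that the old pools were both above the young ones. Tomm40 per Tomm22, the pore against its central receptor, was 0.240 and 0.259 in young and 0.180 and 0.182 in old ISCs, a log2 difference of -0.46. Ratios still depend on other corrections: after that for GC content and gene length the log2 fold change was -0.10 for Tomm40 and 0.13 for Tomm22, in place of -0.17 and 0.30. Timm8a1 per Timm13 was 0.602 and 0.391 in young and 0.786 and 1.02 in old ISCs, and Timm8a1 per Timm8b was 0.175 and 0.102 against 0.217 and 0.234. Tomm7 per Tomm5 also lay higher in both old pools, with 1.24 and 0.951 against 1.48 and 1.32, as did Tomm70a per Tomm20, with 1.60 and 1.72 against 1.74 and 1.89. By contrast, Timm10 per Timm9, Timm17a per Timm17b, Grpel2 per Grpel1, Timm8b per Timm13, Tomm22 per Tomm20, Gfer per Chchd4, Hspa9 per Grpel1 and Timm50 per Timm44 overlapped between ages. Such separations are common with 2 pools per age, since the ages did not overlap for 47.6% of all single genes tested. An exact two-sided permutation test of 2 against 2 pools cannot give a p below 0.333, and the ratios were not tested with a model.

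**Figure D4:**
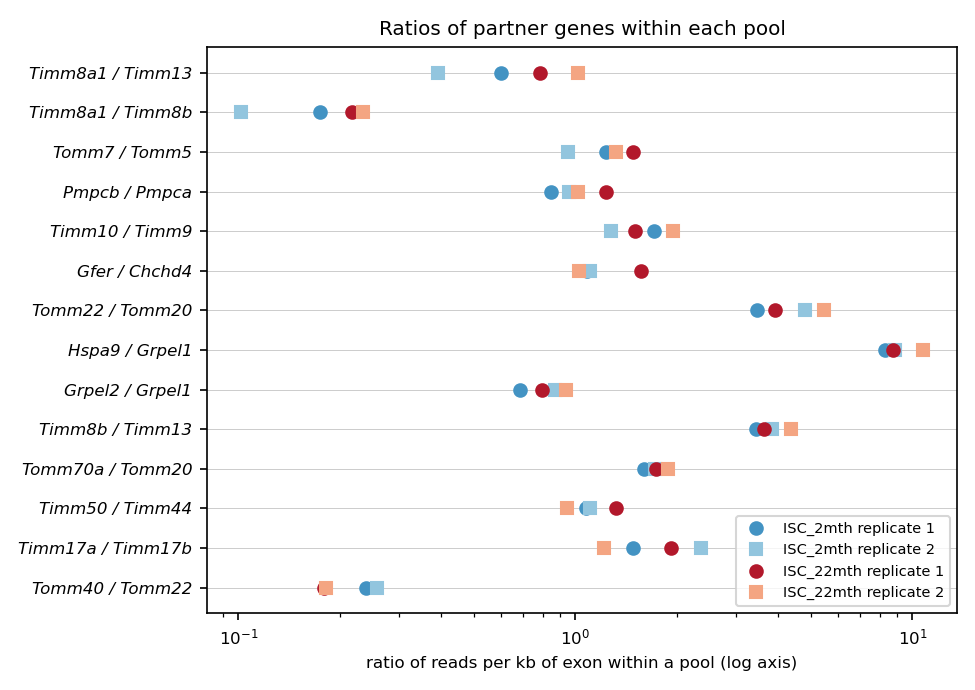
Ratio of reads per kilobase of exon of 14 pairs of partner import genes within each pool (log axis), with young pools in blue and old pools in red. Tomm40 / Tomm22 lies lower in both old pools (0.180 and 0.182) than in both young pools (0.240 and 0.259), and Timm8a1 / Timm13 higher.

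Other genes of the import pathway, taken from 7 lists by name, were examined beside the members. None of the 56 genes listed and tested had an FDR under 0.05 by edgeR's quasi-likelihood test (2.26% of all genes tested), and 10 (17.9%) had an unadjusted p under 0.05, all of them higher in old ISCs, against 16.9% of all genes tested. Limma voom with sample quality weights and DESeq2 also called 0, with 10 and 5 at an unadjusted p under 0.05, edgeR after GC and length correction called 0 with 4 (7.14%), and the likelihood ratio test called 1, Ndufa8. The shares of all genes at an unadjusted p under 0.05 were 16.1% with voom, 10.2% with DESeq2 and 13.8% after the GC and length correction, and the likelihood ratio test called 4.46% of all genes. The direction depended on the scaling, since with total counts 14 of the 56 were called by edgeR, all lower, where 33.3% of all genes were called lower, and the median log2 fold change was -0.37 in place of 0.12. The 10 at an unadjusted p under 0.05 with TMM are named here after their values were seen. Of them, 5 encode cysteine-rich proteins that the disulfide relay imports, out of 11 such genes. Ndufa8, a complex I subunit, was at 19.2 and 21.7 CPM in young and 31.3 and 28.5 CPM in old ISCs (log2 fold change 0.55, SE 0.15, FDR = 0.072 by edgeR), and the other 4 were Chchd10, Chchd2, Cmc1 and Cmc2. Cox17, also among the 11, lay lower in both old pools (10.1 and 10.1 against 9.16 and 8.68 CPM, log2 fold change -0.18), and 5 overlapped between ages. These values stood beside log2 fold changes of -0.11 for Chchd4 and 0.14 for Gfer, the relay itself. A twin pair of cysteines with 9 residues between, present in 0.598% of all coding sequences, was searched in the same 11 genes, again with 10 to 20 codons between the pairs. It was found in Ndufa8 and Cmc1, and also in Cox19, Ndufs5 and Ndufb7, whose log2 fold changes were -0.09, -0.03 and 0.02 with overlapping ages, and it was not found at this spacing in Chchd2, Chchd10, Cmc2, Cox17, Cox6b1 or Uqcrh. A pair set closer or farther apart would be missed by this search. Those of Ndufa8 and Cmc1 are shown as examples, with the cysteine codons in capitals.
Ndufa8, codon 56: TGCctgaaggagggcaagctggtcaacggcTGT
Ndufa8, codon 78: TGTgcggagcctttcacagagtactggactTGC
Cmc1, codon 31: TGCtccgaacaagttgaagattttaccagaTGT
Cmc1, codon 53: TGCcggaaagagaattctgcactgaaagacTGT
Among the remaining lists, the genes at an unadjusted p under 0.05 were Minos1 and Immt of the MICOS complex, which shapes the cristae, Yme1l1 and Clpx of the mitochondrial proteases, and Pitrm1, which degrades cleaved presequences. Outer membrane insertion genes such as Samm50 (6 tested), translocase partners (6) and cytosolic delivery chaperones such as Hspa8 (9) had none, with median log2 fold changes of -0.02, -0.01 and 0.04.

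Promoters of the members were searched for letters bound by regulators of nuclear genes for mitochondrial proteins, on both strands, in RefSeq windows of GRCm38.p6 from 250 bases before to 50 after the start. Of the 34 genes, 29 had an entry, with 31 promoters, and Grpel2, Hspa9, Timm21, Tomm40l and Tomm7 had none. The ETS core CCGGAAG (reverse complement CTTCCGG) was present in 13 of the 31 (41.9%), against 8.86% of all 32851 promoters and 17.8% of the promoters of tested genes. For NRF1 only a fixed palindromic form of the consensus, 10 letters long, was searched. It was in 0 of the 31 (0.971% of all and 2.13% of the promoters of tested genes). Variants of this site were not searched, so the 0 does not show that these promoters lack NRF1 sites. The YY1 letters AAGATGG (reverse complement CCATCTT) were in 3 of the 31 (9.68%). They were in 6.34% of all promoters and in 7.18% of those of tested genes. Median log2 fold changes were 0.11 over the 11 tested members with the ETS letters and 0.17 over the 14 without them. Of the 12 genes with the letters, 6 held them more than once in a window, and all 6 are shown so that their direction plays no part in the choice. Timm10, Tomm22 and Tomm70a lay higher in both old pools, Tomm34 and Timm23 overlapped between ages with log2 fold changes of -0.29 and -0.39, and Timm8a2 had too few reads to be tested. Windows are given 5′ to 3′ on the gene's strand, with the letters in capitals (a run of 10 capitals is the forward and reverse form overlapping).
Timm10, chr2:84826771-84827070, plus strand: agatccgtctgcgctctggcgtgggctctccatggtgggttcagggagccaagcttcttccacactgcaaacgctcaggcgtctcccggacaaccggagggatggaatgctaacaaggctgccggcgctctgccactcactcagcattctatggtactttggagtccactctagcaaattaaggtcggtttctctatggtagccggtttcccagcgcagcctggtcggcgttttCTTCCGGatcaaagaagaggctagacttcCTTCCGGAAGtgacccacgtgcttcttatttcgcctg
Tomm34, chr2:164071053-164071352, minus strand: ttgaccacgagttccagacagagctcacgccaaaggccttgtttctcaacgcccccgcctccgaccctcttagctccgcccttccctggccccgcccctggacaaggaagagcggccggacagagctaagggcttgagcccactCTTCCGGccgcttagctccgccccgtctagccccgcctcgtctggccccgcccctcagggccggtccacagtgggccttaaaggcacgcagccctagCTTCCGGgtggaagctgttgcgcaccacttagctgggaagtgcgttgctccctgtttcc
Timm23, chr14:32201842-32202141, minus strand: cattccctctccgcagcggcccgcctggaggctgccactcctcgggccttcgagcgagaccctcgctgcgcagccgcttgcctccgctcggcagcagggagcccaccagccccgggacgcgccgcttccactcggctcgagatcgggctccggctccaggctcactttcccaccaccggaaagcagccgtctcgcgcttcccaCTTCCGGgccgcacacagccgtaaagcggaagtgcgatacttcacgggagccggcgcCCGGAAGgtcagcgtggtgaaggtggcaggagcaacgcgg
Timm8a2, chr14:122034424-122034723, plus strand: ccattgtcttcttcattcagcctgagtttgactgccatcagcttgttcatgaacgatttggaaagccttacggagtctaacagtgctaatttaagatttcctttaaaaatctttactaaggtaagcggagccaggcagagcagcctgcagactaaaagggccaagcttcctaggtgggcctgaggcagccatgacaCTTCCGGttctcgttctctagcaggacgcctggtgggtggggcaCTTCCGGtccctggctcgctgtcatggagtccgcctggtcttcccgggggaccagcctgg
Tomm22, chr15:79670618-79670917, plus strand: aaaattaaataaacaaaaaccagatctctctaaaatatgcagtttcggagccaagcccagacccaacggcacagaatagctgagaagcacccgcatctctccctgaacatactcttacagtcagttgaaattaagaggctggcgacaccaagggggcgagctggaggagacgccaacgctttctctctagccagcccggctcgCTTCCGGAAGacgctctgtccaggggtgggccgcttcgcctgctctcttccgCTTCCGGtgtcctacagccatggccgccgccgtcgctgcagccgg
Tomm70a, chr16:57121464-57121763, plus strand: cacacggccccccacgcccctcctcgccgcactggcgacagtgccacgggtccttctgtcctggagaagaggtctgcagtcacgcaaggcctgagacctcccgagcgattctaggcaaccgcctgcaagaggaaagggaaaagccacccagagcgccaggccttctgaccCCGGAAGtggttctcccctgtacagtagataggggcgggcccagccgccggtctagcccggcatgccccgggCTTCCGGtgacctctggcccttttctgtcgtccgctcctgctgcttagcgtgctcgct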

How the data were processed

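Sequenced RNA came from 4 pools of sorted ISCs, 5 animals each. The authors trimmed the reads (Trimmomatic 0.30), aligned them to GRCm38 (STAR 2.4.2a), counted reads in exons of GENCODE vM15 genes (featureCounts) and deposited raw counts per gene, neither normalized nor filtered. Strand setting and treatment of multiple matches are not given in the sources used here. Members and gene lists were chosen with earlier results of these data known, and the pairs of partner genes and sequence searches after the data had been seen.

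Of 52459 genes, the 13692 with over 5 reads and over 1 CPM in any pool were tested with edgeR 4.0.16 in R 4.3.3, using TMM, glmQLFit and glmQLFTest, without covariates, and Benjamini-Hochberg adjustment over all of them. SEs and 95% intervals came from the log2 fold change and F value. Alternatives included limma 3.58.1, DESeq2 1.42.0, other scalings, filters, a replicate block and a correction by GC content and length (lowess span 0.3, 13236 genes matched to GENCODE vM21). By rule every member was named, with counts per pool and the full test for the lowest p in each role; values of other members were added after they were seen. Fits were tested on simulated counts. Replicate pools differed by more than sampling noise (chi-square per gene of 9.42 and 7.11). The floor of 3 counts lay at 0.199 to 0.246 normalized CPM and covers counting error only. Some items are not reported here.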

Additional observations from a re-analysis of the deposited data

How the results depend on the processing

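The labels do not say whether pools with the same replicate number were processed together, and the correlation of their deviations (-0.0059) cannot settle it. With the replicate block 0 members and 1 other pathway gene, Ndufa8, had an FDR under 0.05, over all genes 623 in place of 309. Together with a correction by GC content and length, the block gave a median log2 fold change of 0.13 over the members in place of 0.22, and 112 genes were called in all. Scaling by total counts alone, which shifted the median of all genes to -0.50, was the setting that changed most: 5 members (Tomm34, Pmpca, Tomm40, Chchd4 and Timm17a, all lower) and 14 other pathway genes, all lower too, were called (33.3% of all genes lower), the median of members became -0.28, and 0 members were higher and 20 lower in both old pools (3 lower with counts outside mitochondrially encoded genes, a scaling chosen after seeing the data). Log2 fold changes that turned negative under total counts were Gfer -0.35, Grpel1 -0.38, Grpel2 -0.22, Hspa9 -0.20, Pmpcb -0.21, Timm10 -0.0086, Timm10b -0.049, Timm17b -0.27, Timm21 -0.26, Timm22 -0.27, Timm29 -0.44, Timm44 -0.33, Timm50 -0.28, Timm8b -0.41, Timm9 -0.22, Tomm20 -0.37, Tomm22 -0.19, Tomm5 -0.31 and Tomm70a -0.24. The likelihood ratio test called 1 other pathway gene. The GC and length correction moved further log2 fold changes by over 1.5 times, to 0.033 for Grpel1, 0.15 for Timm9, 0.050 for Tomm20, 0.055 for Tomm5, 0.34 for Timm50, -0.070 for Pmpca and -0.096 for Timm17a. Timm13 became 0.0050 with the GC and length correction and 0.0074 with the block added. With a pool left out (the lone pool of an age assumed to vary like the others), between 0 and 3 members and between 0 and 1 other pathway genes were called, where 1.15% (without ISC_2mth replicate 1), 2.17%, 4.8% and 5.22% (without ISC_22mth replicate 2) of all genes were, and the log2 fold change ranged from -0.25 to 0.45 for Gfer, -0.094 to 0.028 for Pmpca, -0.17 to 0.033 for Timm13, -0.21 to 0.12 for Timm17a, -0.013 to 0.12 for Timm29, -0.015 to 0.41 for Timm50, -0.18 to 0.29 for Timm8b, -0.37 to 0.059 for Tomm40 and -0.089 to 0.39 for Tomm5. Without a change of sign, 1 pool moved the value by over 1.5 times for Timm17b (0.00049 to 0.50), Tomm20 (0.0098 to 0.23), Chchd4 (-0.22 to -0.0062), Grpel2 (0.10 to 0.45), Timm44 (0.077 to 0.26), Pmpcb (0.16 to 0.40) and Timm23 (-0.69 to -0.017), beside the members given in the report. Among the 22 tested members under 10% of whose stretches and exonic bases are shared, a choice made after seeing the data, 0 were called and the median was 0.22. The causes of these shifts were not tested beyond the construction of each setting. Depth and 2 pools per age limit what could be called.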
